A study of Mus musculus with 23 samples.

Results

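Guanine nucleotide-binding proteins switch between a form with GTP and a form with GDP, and the 9 genes described here encode small GTPases or regulators of such switches. *Gem* and *Rrad* belong to the RGK family, small GTPases that bind the beta subunits of voltage-gated calcium channels and calmodulin and that lower channel activity. *Rhob* encodes an endosomal small GTPase with a short-lived transcript and protein, whereas the products of *Rnd1* and *Rnd3* hydrolyse hardly any GTP and stay in the active form, so that their amount sets their activity. *Rgs1*, *Rgs2*, *Rgs14* and *Rgs16* encode regulators of G protein signalling, which speed up GTP hydrolysis by the alpha subunits of heterotrimeric G proteins and thereby shorten signals from receptors such as those for chemokines. The genes were listed by family when earlier results of these data were known, so that their counts below are a description, and all 9 were matched to probes on the array, as 9 of 26512 genes measured and with 13 probes in total.

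RNA of bone marrow-derived macrophages (BMDM) from wt, MK2-/- and MK2/3-/- mice was measured on 23 one-colour Agilent arrays, with 1 array per sample. MK2 and MK3 are protein kinases that p38 activates downstream of the LPS receptor. Marrow of male C57BL/6 mice had been kept for 9 days in culture, in which M-CSF was at 10 ng/ml, and the cells then received 100 ng/ml LPS or medium alone for 120 min. The groups were wt BMDM in medium and after LPS (mice aged 12 to 13 weeks, 4 arrays each), MK2-/- BMDM in medium (10 to 13 weeks, 3 arrays) and after LPS (10 to 13 weeks, 4 arrays), and MK2/3-/- BMDM in medium and after LPS (11 to 14 weeks, 4 arrays each). The cells are cultured macrophages of a single sex and strain, seen at a single time, so that other doses, times and tissue macrophages are outside the data, and transcripts but not proteins or GTP loading were measured. All arrays of a genotype lay on 1 slide, so that genotype and slide cannot be told apart, and on each slide the medium arrays lay in row 1 and the LPS arrays in row 2.

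Values are log2 signals after quantile normalization, on which 1 unit is a 2-fold difference. The median share of probes that the scanner software marked as well above background was 58.2% (57.1 to 60.8%) in wt BMDM in medium and 57.7% (56.2 to 60.8%) after LPS. The share was 54.9% (54.2 to 55.7%) and 50.3% (49.6 to 52.5%) in MK2-/- and 55.1% (47.5 to 69.1%) and 50.8% (48.5 to 55.4%) in MK2/3-/- BMDM. Differences are given as log2 difference ± SE from limma, and a gene was called when its p, adjusted over all 26512 genes by Benjamini and Hochberg, was under 0.05. A two-sided exact permutation test, in which arrays were reassigned between the 2 groups and their means compared, was added, whose smallest possible p is 0.0286.

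The transcripts of the targeted genes followed the genotype labels. *Mapkapk2*, which encodes MK2, was at 12.46, 12.64, 11.49 and 12.28 on the wt arrays in medium and at 14.84, 15.37, 14.19 and 14.67 after LPS. In MK2-/- BMDM it was at 9.07, 8.73 and 8.94 in medium and at 12.00, 11.89, 11.63 and 12.30 after LPS, and in MK2/3-/- BMDM at 8.61, 8.57, 8.91 and 8.79 and at 11.54, 11.65, 11.58 and 12.26, respectively. In each treatment all knockout arrays lay below all wt arrays, although the probe was well above background on every array. *Mapkapk3*, which encodes MK3, was at 13.12, 13.52, 13.58 and 13.78 in medium and at 13.96, 13.77, 14.35 and 13.94 after LPS in wt BMDM. MK2-/- BMDM had it at 13.89, 13.60 and 13.73 in medium and at 13.93, 13.80, 14.07 and 14.10 after LPS, and in MK2/3-/- BMDM at 11.97, 11.56, 12.08 and 11.89 and at 10.64, 10.36, 10.89 and 10.91, respectively. Only the MK2/3-/- arrays were low for *Mapkapk3*, below all others of the same treatment. Where the probes lie relative to the deleted parts of the genes is not given in the sources used here. The LPS treatment was visible as well, since all 5 genes chosen to check it (*Tnf*, *Il1b*, *Il6*, *Cxcl2* and *Nfkbia*) rose in all 3 genotypes.

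Of 10 macrophage marker genes listed, *Cd68* was not matched to a probe, and of the other 9, 8 were well above background on all 23 arrays, and *Cd163* was so on none. Of 6 markers of T and NK cells, *Cd3e* was well above background on all 23 arrays and *Cd3d* and *Cd8a* on none. *Klrb1c* was so on no medium array and, after LPS, on 2 wt, 2 MK2-/- and 4 MK2/3-/- arrays. *Cd79b* of B cells and *Elane* of granulocytes were also well above background on every array, so that the absence of other cells was not shown. Collagen transcripts of stromal cells were present and had lower means in the knockouts, as *Col1a1* in medium was at 12.33 (wt), 9.61 (MK2-/-) and 10.20 (MK2/3-/-). Not all stromal and endothelial markers went this way. In the same order, *Kdr* in medium was at 6.28, 6.84 and 6.69, *Cdh5* at 3.72, 2.85 and 4.10 and *Dcn* at 4.88, 4.38 and 5.05. The log2 summed signal of these markers in medium ran from 12.22 to 16.69 in wt and from 9.86 to 15.85 in MK2/3-/- cultures. With LPS, none of the 8 stromal and endothelial markers passed the adjustment in the limma fit of all groups. In an alternative, 1 passed with LPS in MK2/3-/- BMDM. Whether the share of stromal cells bears on the genes described here was not tested.

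LPS changed most of the 9 genes in every genotype. In wt BMDM 8 of 9 were called, 6 higher and 2 lower, compared with 16.9% of all genes (8.16% higher and 8.78% lower). The count was also 8 in MK2-/- BMDM, with 6 higher and 2 lower, against 18.4% of all genes (8.41% higher and 9.98% lower). All 9 were called in MK2/3-/- BMDM, 6 higher and 3 lower, against 24.7% of all genes (11.9% higher and 12.8% lower). The 9 genes had a median log2 change of 2.30 (wt), 2.18 (MK2-/-) and 2.14 (MK2/3-/-), whereas the median over all genes was 0.00539, -0.00990 and -0.0229. *Gem*, *Rhob*, *Rnd1*, *Rnd3*, *Rgs1* and *Rgs16* rose in all 3 genotypes, *Rgs2* and *Rgs14* fell in all 3, and *Rrad* was called lower in MK2/3-/- BMDM. With the medium and LPS array of a culture as replicate block, *Rrad* was also called in wt BMDM, where it was higher, and neither call held in all alternatives. The interactions given below did not pass the adjustment for any of the 9 genes. The plot of signals by group shows each array.

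**Figure D1:**
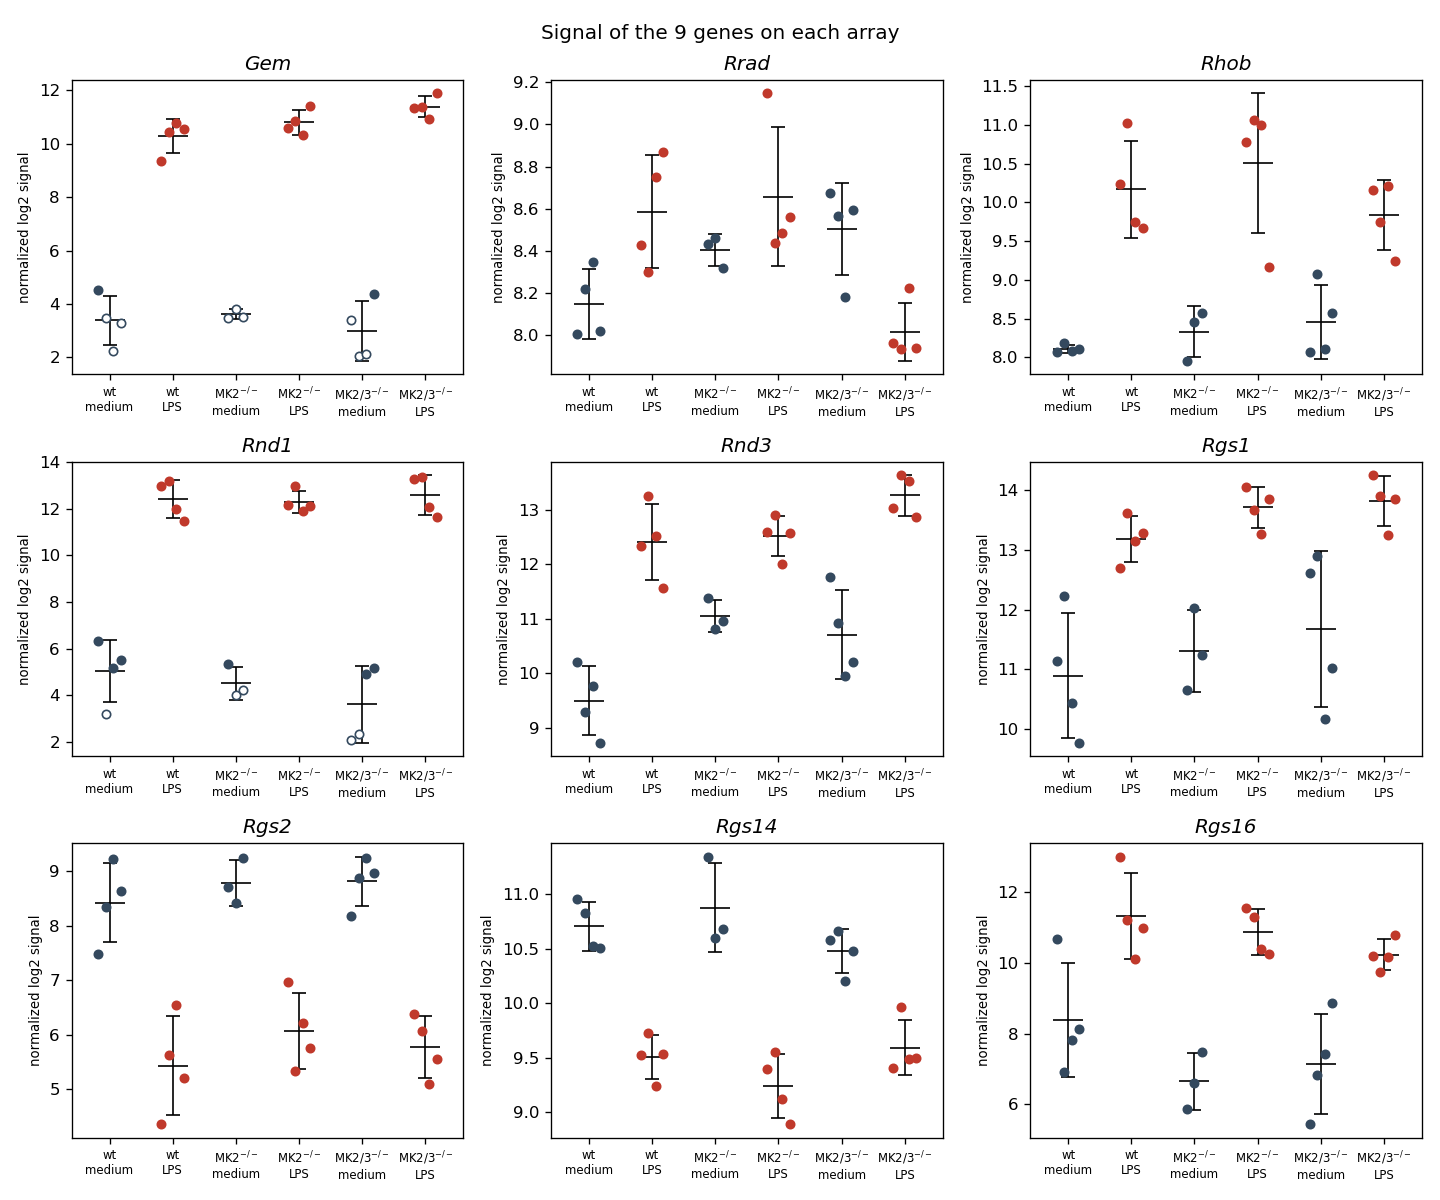
Normalized log2 signal (vertical axis) of the 9 genes in the 6 groups of genotype and treatment (horizontal axis), with medium in dark and LPS in red. Each point is 1 array, filled where the signal was well above background and open where it was not, the dash is the group mean and the error bars are the SD.

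Of the RGK genes, *Gem* was close to background in resting cells, at 4.52, 3.46, 2.25 and 3.30 in wt BMDM in medium and at 9.34, 10.43, 10.79 and 10.53 after LPS. Its signal in MK2-/- BMDM was 3.49, 3.82 and 3.52 in medium and 10.58, 10.87, 10.34 and 11.41 after LPS. MK2/3-/- BMDM had 3.39, 2.05, 2.11 and 4.38 in medium and 11.33, 11.38, 10.94 and 11.88 after LPS. All LPS arrays were far above all medium arrays in each genotype. Of the medium arrays, 1 of 4 from wt BMDM, 0 of 3 from MK2-/- and 1 of 4 from MK2/3-/- BMDM had a signal well above background, compared with all arrays after LPS. *Gem* rose by 6.89 ± 0.49 in wt BMDM (adjusted p = 4.02e-09). In MK2-/- BMDM, where no medium array was well above background, the induction was at least 127-fold. This bound applies to the quantile normalized signals and not to those with normexp background correction. The limma fit, in which the medium signals were not raised to a bound, gave an adjusted p of 7.61e-09 in MK2-/- BMDM. The increase in MK2/3-/- BMDM was 8.40 ± 0.49 (adjusted p = 2.28e-10). The medium level of *Gem* lay near the background. The size of the increase depended on how background was treated, and with normexp background correction it was 3.92, 4.41 and 4.89 in the 3 genotypes. The other *Gem* probe rose by 6.15, 5.82 and 7.58 in these genotypes.

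*Rrad*, the relative of *Gem*, was measured at 8.01, 8.22, 8.35 and 8.02 in wt BMDM in medium and at 8.43, 8.30, 8.75 and 8.87 after LPS. The MK2-/- signals were 8.43, 8.46 and 8.32 in medium and 9.15, 8.44, 8.49 and 8.56 after LPS. For MK2/3-/- BMDM they were 8.68, 8.57, 8.18 and 8.60 in medium and 7.96, 7.94, 8.22 and 7.94 after LPS. The probe was well above background on all arrays, and the 2 treatments overlapped in every genotype. In wt BMDM the LPS arrays had the higher mean, and in MK2/3-/- BMDM 3 of 4 lay below all medium arrays. The log2 difference in wt BMDM was 0.44 ± 0.17 (adjusted p = 0.0808) and that in MK2-/- BMDM 0.25 ± 0.18 (adjusted p = 0.396), neither of which was called. In MK2/3-/- BMDM *Rrad* fell, with a difference of -0.49 ± 0.17 (adjusted p = 0.0357, exact permutation p = 0.0571 without regard to culture). This call was lost with 75th percentile scaling (adjusted p = 0.0511), with only the 2 groups in the fit (0.0612) and by the methods' t-test (0.0514), within a range of 0.0175 to 0.0612 over the alternatives. It was also lost when single MK2/3-/- arrays were left out. Without LPS replicate 1 the difference was -0.47 (adjusted p = 0.0784), without LPS replicate 2 -0.46 (adjusted p = 0.0846) and without LPS replicate 4 -0.46 (adjusted p = 0.0691). Without medium replicate 1 it was -0.43 (adjusted p = 0.0880), without medium replicate 2 -0.47 (adjusted p = 0.0763) and without medium replicate 4 -0.46 (adjusted p = 0.0857). The wt difference was called without wt LPS replicate 2, at 0.53 (adjusted p = 0.0490), without MK2-/- LPS replicate 1, at 0.44 (adjusted p = 0.0389), and with the medium and LPS array of a culture as replicate block (adjusted p = 0.0428, range over the alternatives 0.0428 to 0.143). The calls of *Rrad* therefore rest on the choice of arrays and test.

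*Rhob* had signals of 8.07, 8.19, 8.07 and 8.10 in wt BMDM in medium and of 10.24, 11.03, 9.74 and 9.66 after LPS. MK2-/- arrays read 7.95, 8.46 and 8.57 in medium and 10.78, 11.07, 11.00 and 9.16 after LPS. MK2/3-/- arrays read 8.06, 9.08, 8.11 and 8.57 in medium and 10.16, 9.75, 10.21 and 9.24 after LPS. In each genotype all LPS arrays were above all medium arrays, with MK2-/- LPS replicate 4 well below the other 3. *Rhob* rose by 2.06 ± 0.38 in wt (adjusted p = 0.000522), by 2.18 ± 0.41 in MK2-/- (adjusted p = 0.000611) and by 1.39 ± 0.38 in MK2/3-/- BMDM (adjusted p = 0.00959). The methods' t-test did not call it in MK2-/- BMDM (adjusted p = 0.0665, range over the alternatives 0.000298 to 0.0665). The other *Rhob* probe gave smaller increases of 1.08, 1.44 and 0.71. That probe did not pass in MK2/3-/- BMDM (adjusted p = 0.168). Over the alternatives, which include taking that probe, the adjusted p of *Rhob* in MK2/3-/- BMDM was 0.00433 to 0.169.

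*Rnd1*, whose product stays in the active form at the plasma membrane, went from 6.31, 3.18, 5.16 and 5.52 in wt BMDM in medium to 12.98, 13.21, 12.01 and 11.47 after LPS. It went from 5.32, 3.99 and 4.22 to 12.15, 13.00, 11.92 and 12.11 in MK2-/- BMDM. In MK2/3-/- BMDM the values were 2.05, 2.31, 4.92 and 5.15 in medium and 13.28, 13.38, 12.11 and 11.66 after LPS. Every LPS array was above every medium array by a wide margin. After LPS all arrays had a signal well above background, whereas in medium 3 of 4 from wt, 1 of 3 from MK2-/- and 2 of 4 from MK2/3-/- BMDM had one. *Rnd1* rose in wt BMDM by 7.37 ± 0.72 (adjusted p = 3.79e-07). It rose by 7.78 ± 0.78 in MK2-/- (adjusted p = 4.88e-07) and by 8.99 ± 0.72 in MK2/3-/- BMDM (adjusted p = 1.65e-08). A brighter second probe, well above background on all arrays, rose by 7.08, 7.41 and 8.06, to means of 16.08, 16.08 and 16.76 after LPS.

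*Rnd3* encodes a further constitutively active relative, and its signals were 10.21, 9.28, 9.76 and 8.72 in wt BMDM in medium and 12.32, 13.25, 12.51 and 11.56 after LPS. In MK2-/- BMDM they were 11.37, 10.80 and 10.96 in medium and 12.59, 12.91, 12.01 and 12.57 after LPS. In MK2/3-/- BMDM they were 11.75, 10.92, 9.95 and 10.20 and 13.03, 13.63, 13.52 and 12.86, respectively. Medium and LPS arrays did not overlap within any genotype, while the medium means of both knockouts were above that of wt BMDM. The increase was 2.92 ± 0.39 in wt BMDM (adjusted p = 2.09e-05). MK2-/- BMDM gave 1.47 ± 0.43 (adjusted p = 0.0188) and MK2/3-/- BMDM 2.55 ± 0.39 (adjusted p = 6.01e-05), without an interaction that passed. The MK2-/- call was lost without MK2-/- LPS replicate 2, at 1.34 (adjusted p = 0.0589), without MK2-/- medium replicate 2, at 1.35 (adjusted p = 0.0762), and without MK2-/- medium replicate 3, at 1.43 (adjusted p = 0.0612). In all alternatives it was kept (adjusted p 0.00631 to 0.0260).

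Of the RGS genes, *Rgs1*, a brake on chemokine receptors that act through Gi, was at 11.13, 12.22, 10.43 and 9.77 in wt BMDM in medium and at 12.69, 13.62, 13.15 and 13.28 after LPS. The values for MK2-/- BMDM were 10.66, 12.02 and 11.24 in medium and 14.06, 13.68, 13.26 and 13.86 after LPS. For MK2/3-/- BMDM the values were 12.62, 12.90, 10.17 and 11.02 in medium and 14.26, 13.90, 13.25 and 13.86 after LPS. All LPS arrays were above the medium arrays of their genotype, and the medium arrays were widely spread. *Rgs1* rose by 2.30 ± 0.54 in wt (adjusted p = 0.00460), by 2.41 ± 0.58 in MK2-/- (adjusted p = 0.00534) and by 2.14 ± 0.54 in MK2/3-/- BMDM (adjusted p = 0.00539). By the methods' t-test it was not called in wt (adjusted p = 0.0529, range over the alternatives 0.00107 to 0.0529) or MK2/3-/- BMDM (adjusted p = 0.0877, range 0.000989 to 0.0877).

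*Rgs2*, whose product prefers Gq as its target, moved in the opposite direction, from 7.48, 8.35, 9.23 and 8.65 in wt BMDM in medium to 4.36, 5.63, 6.55 and 5.21 after LPS. The MK2-/- signal went from 8.71, 8.42 and 9.24 to 6.97, 5.34, 6.21 and 5.76. The MK2/3-/- signal went from 8.18, 8.88, 9.24 and 8.97 to 6.38, 6.07, 5.11 and 5.55. All LPS arrays were below all medium arrays, and the probe was well above background throughout. *Rgs2* fell with a log2 difference of -2.99 ± 0.45 in wt BMDM (adjusted p = 7.36e-05), -2.72 ± 0.49 without MK2 (adjusted p = 0.000408) and -3.04 ± 0.45 without both kinases (adjusted p = 3.96e-05). With normexp background correction the differences were -1.99, -2.11 and -2.25. Of the 2 *Rgs2* probes the one used is dimmer, and the brighter probe fell from a mean of 16.04 to 12.70 in wt BMDM, a difference of -3.34. For that probe the differences in MK2-/- and MK2/3-/- BMDM were -3.34 and -2.70.

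*Rgs14*, a scaffold with an RGS domain for Gi and binding sites for Ras and Rap, had 10.96, 10.83, 10.53 and 10.50 in wt BMDM in medium and 9.53, 9.73, 9.24 and 9.53 after LPS. MK2-/- BMDM had 11.35, 10.60 and 10.68 in medium and 9.39, 9.55, 9.12 and 8.89 after LPS. MK2/3-/- arrays were at 10.58, 10.66, 10.20 and 10.48 in medium and at 9.40, 9.97, 9.49 and 9.50 after LPS. The LPS arrays were lower than all medium arrays in each genotype, with MK2/3-/- LPS replicate 2 apart from the other 3. *Rgs14* fell with a log2 difference of -1.20 ± 0.19 in wt BMDM (adjusted p = 0.000127). It also fell in MK2-/- cells, at -1.64 ± 0.21 (adjusted p = 8.34e-06), and in MK2/3-/- cells, at -0.89 ± 0.19 (adjusted p = 0.00153).

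*Rgs16*, which acts on Gi and Gq, was at 10.67, 6.91, 7.81 and 8.13 in wt BMDM in medium and at 13.01, 11.23, 10.12 and 10.99 after LPS. Its MK2-/- signals were 5.87, 6.61 and 7.47 in medium and 11.55, 11.30, 10.39 and 10.26 after LPS. Its MK2/3-/- signals were 5.43, 6.84, 7.42 and 8.86 in medium and 10.21, 9.74, 10.18 and 10.81 after LPS. Medium replicate 1 of wt BMDM was higher than the lowest wt LPS array, whereas the groups did not overlap in the knockouts. *Rgs16* rose by 2.96 ± 0.76 in wt BMDM (adjusted p = 0.00897, exact permutation p = 0.0571 without regard to culture). Within the 4 wt cultures the change was 2.34, 4.32, 2.31 and 2.86, upward in each. MK2-/- BMDM had an increase of 4.23 ± 0.82 (adjusted p = 0.000842), and MK2/3-/- BMDM one of 3.10 ± 0.76 (adjusted p = 0.00444). The wt call was lost with only the 2 groups in the fit (adjusted p = 0.0763) and by the methods' t-test (adjusted p = 0.126, range over the alternatives 0.00192 to 0.126, the lowest with the medium and LPS array of a culture as replicate block). The plot of LPS responses shows the 9 genes side by side.

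**Figure D2:**
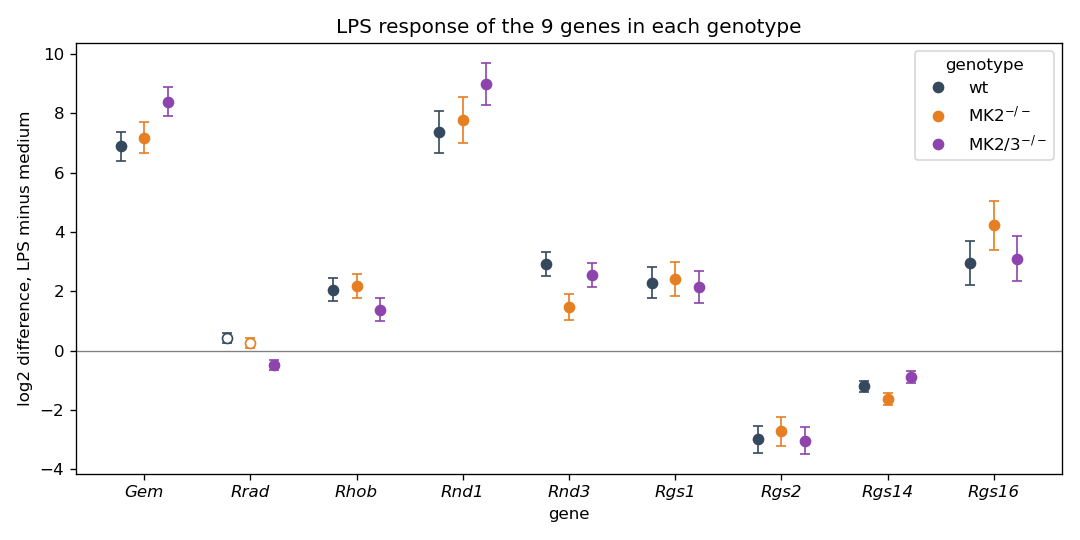
Log2 difference between LPS and medium (vertical axis) of the 9 genes (horizontal axis) in wt, MK2-/- and MK2/3-/- BMDM (colours). Each point is the estimate of limma from 3 or 4 arrays per group, filled where the adjusted p was under 0.05, and the error bars are the SE.

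After LPS, the genotypes did not differ in any of the 9 genes at the adjusted threshold. Between MK2-/- and wt BMDM, limma called 0 of 9, compared with 0.0302% of all genes. An unadjusted limma p under 0.05 was found in 0 of 9, beside 7.5% of all genes. Between MK2/3-/- and wt BMDM the count was 0 as well in limma, against 1.64% of all genes. At unadjusted p it was 3 of 9, against 13.5% of all genes. Between MK2/3-/- and MK2-/- BMDM limma called 0 of 9, against 0.158% of all genes, with 1 at unadjusted p, against 7.94% of all genes. The methods' t-test, with p adjusted in the same way, called 0 of 9 in each of these comparisons, which share their groups pairwise. Without adjustment 0, 2 and 2 of 9 were under 0.05 by that test, for which the share of all genes is not given here. The largest of the 3 differences between MK2/3-/- and wt BMDM was in *Gem*, whose 4 MK2/3-/- arrays after LPS, given above, were higher than all 4 wt arrays, by 1.11 ± 0.49 (adjusted p = 0.319, exact permutation p = 0.0286). With normexp background correction this difference was called, at 0.92 (adjusted p = 0.0423, range over the alternatives 0.0423 to 0.500). For *Rrad* all 4 MK2/3-/- arrays were lower than all wt arrays, with a difference of -0.57 ± 0.17 (adjusted p = 0.0967, exact permutation p = 0.0286). They were also below all MK2-/- arrays, with -0.64 ± 0.17 (adjusted p = 0.168, exact permutation p = 0.0286). For *Rnd3* the MK2/3-/- and wt arrays overlapped, and the difference was 0.85 ± 0.39 (adjusted p = 0.352, exact permutation p = 0.0857).

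In medium, limma likewise called 0 of 9 genes between MK2-/- and wt BMDM (0.00754% of all genes), with 2 at an unadjusted p under 0.05. It called 0 of 9 between MK2/3-/- and wt BMDM (0.0792% of all genes), with 2 at unadjusted p (4.66% of all genes). Between MK2/3-/- and MK2-/- BMDM it called 0 of 9 (0.0453% of all genes), with 0 at unadjusted p (3.62% of all genes). The methods' t-test called 0 of 9 in each after adjustment and 1, 1 and 0 without it, where the share of all genes is not given here. *Rnd3* was higher on all 3 MK2-/- arrays than on all 4 wt arrays, by 1.55 ± 0.43 (adjusted p = 1.00, exact permutation p = 0.0571). The MK2/3-/- arrays overlapped with wt in *Rnd3*, with a difference of 1.21 ± 0.39 (adjusted p = 0.753, exact permutation p = 0.0857). *Rgs16* had a lower mean in MK2-/- than in wt BMDM, with overlapping arrays and a difference of -1.73 ± 0.82 (adjusted p = 1.00, exact permutation p = 0.143). In *Rrad* the MK2/3-/- and wt arrays overlapped at a difference of 0.36 ± 0.17 (adjusted p = 1.00, exact permutation p = 0.0857).

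Differences of the LPS response among the genotypes were tested as interactions of genotype and treatment. For MK2-/- against wt BMDM, limma called 0 of 9 genes (0.00377% of all genes), with 1 at an unadjusted p under 0.05. For MK2/3-/- against wt BMDM it called 0 of 9 (0.0113% of all genes), with 2 at unadjusted p (4.55% of all genes). For MK2/3-/- against MK2-/- BMDM it called 0 of 9 (0% of all genes), with 2 at unadjusted p (2.89% of all genes). The methods' t-test has no form for interactions and was not run there. The LPS change of *Rrad* in the single cultures, taken as the LPS array minus the medium array of the same culture number, was 0.42, 0.08, 0.40 and 0.85 in wt and 0.71, -0.03 and 0.24 in MK2-/- BMDM. In MK2/3-/- BMDM the changes of *Rrad* were -0.71, -0.63, 0.04 and -0.65. All MK2/3-/- cultures were thus below all wt cultures, and the interaction was -0.93 ± 0.23 (adjusted p = 0.370, exact permutation p = 0.0286 over cultures). Against MK2-/- BMDM it was -0.74 ± 0.24 (adjusted p = 1.00, exact permutation p = 0.0857).

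The changes of *Gem* were 4.83, 6.96, 8.53 and 7.23 in wt and 7.94, 9.33, 8.82 and 7.50 in MK2/3-/- cultures. Culture 3 of wt BMDM lay among the MK2/3-/- cultures, so that the groups overlapped, and the interaction was 1.51 ± 0.69 (adjusted p = 1.00, exact permutation p = 0.143). In each of these genotypes 3 of 4 medium signals of *Gem* were not well above background, so that the changes of its single cultures, their overlap and the interaction are uncertain. *Rnd3* changed by 2.12, 3.97, 2.74 and 2.83 in wt and by 1.22, 2.10 and 1.61 in MK2-/- cultures. All 3 MK2-/- cultures were below all wt cultures, with an interaction of -1.44 ± 0.58 (adjusted p = 1.00, exact permutation p = 0.0571). The changes of *Rgs14* were -1.95, -1.06 and -1.79 in MK2-/- and -1.18, -0.69, -0.71 and -0.98 in MK2/3-/- cultures. The groups overlapped, and the interaction was 0.75 ± 0.28 (adjusted p = 1.00, exact permutation p = 0.0571).

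Among relatives of the 9 genes, changes with LPS went in both directions. Of the 16 other RGS genes measured, 2 rose and 2 fell in wt, and 1 rose and 4 fell in MK2-/- and in MK2/3-/- BMDM alike, beside 16.9%, 18.4% and 24.7% of all genes called in either direction. The other RGK genes, *Rem1* and *Rem2*, gave 1, 0 and 2 calls, all higher.

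Lists of genes that include partners of the products of the 9 genes were described in the same manner. Changes are given for wt, MK2-/- and MK2/3-/- BMDM in that order. The 15 G protein alpha subunits listed include classes other than Gi and Gq. Of these 15, 3, 3 and 4 rose and 0, 1 and 2 fell, beside 16.9%, 18.4% and 24.7% of all genes called. *Gna13* was at 3.13, 3.10 and 2.90 (adjusted p at most 3.42e-08, and at most 0.00285 over the alternatives), with changes down to 1.37, 1.37 and 1.38 over the alternatives. *Gnai3*, which encodes an alpha subunit of Gi, was also higher in MK2/3-/- than in wt BMDM after LPS by 0.49 ± 0.09 (adjusted p = 0.0117, and at most 0.182 over the alternatives), and without wt LPS replicate 1 the difference was 0.47 (adjusted p = 0.0519). With LPS, *Gnaq* and *Gnai3* were called higher in all 3 genotypes, but the wt calls were lost when any of 5 and 6 arrays was left out, respectively, and the MK2-/- call of *Gnaq* with any of 3. These calls were also lost in some alternatives. There the adjusted p was at most 0.171 for *Gnaq* and 0.117 for *Gnai3* in wt, and at most 0.111 for *Gnaq* in MK2-/- BMDM.

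Of 11 partners of RGK proteins, 1, 1 and 2 rose and 0 fell, where 16.9%, 18.4% and 24.7% of all genes were called. *Cacnb3*, a calcium channel beta subunit, was at 2.51, 3.07 and 3.25 (adjusted p at most 0.0112, and at most 0.0942 over the alternatives). Without wt LPS replicate 2 the wt change of *Cacnb3* was 2.04 (adjusted p = 0.0539). Of 24 Ras and Rap genes, 4, 4 and 5 rose and 3 fell in each genotype, beside the same shares of all genes, with *Rhebl1* at -2.80, -2.90 and -2.92 (adjusted p at most 0.000175, and at most 0.0404 over the alternatives), *Rap2b* at 2.18, 2.15 and 1.96 (adjusted p at most 2.62e-05, and at most 0.0144 over the alternatives) and *Rap2a* at -1.74, -1.85 and -1.69 (adjusted p at most 0.00187, and at most 0.0629 over the alternatives).

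The genes most like 8 of the 9 over the 23 arrays were sought among 15923 genes well above background in a whole group, as a description without a test. For *Gem* the closest were *Klf7* (0.990), *Phldb1* (0.988) and *Tnfaip2* (0.986), with Pearson r in brackets. *Rnd1* was closest to *Cish* (0.984), *Ripk2* (0.981) and *Ptgs2* (0.980), *Rgs1* to *Apobr* (0.960), *Egr2* (0.958) and *Bcl2l1* (0.955) and *Rnd3* to *Dusp16* (0.934), *Slc2a6* (0.934) and *Ccdc50* (0.932). *Rhob* was closest to *Fam133b* (0.955), an entry without a gene name (0.951) and *Shisa3* (0.950). For the genes lowered by LPS they were *Kifc2* (0.955), *5430405H02Rik* (0.948) and *Acrbp* (0.947) for *Rgs2* and *H2aw* (0.940), *Rpusd4* (0.936) and *LTO1* (0.932) for *Rgs14*. *Rrad*, which had the smallest LPS differences, had the weakest neighbours, *Trp53rka* (0.772), *Ddx28* (0.703) and *Fkbpl* (0.688). Shared induction or repression by LPS on these arrays is enough for a high r.

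*Rgs1*, *Rgs2* and *Rgs16* lie on the same chromosome as *Mapkapk2*. In the order of the RefSeq gene table, 5 genes lie between *Rgs1* and *Rgs2* and 93 between *Rgs1* and *Rgs16*, and *Rgs2*, the nearest of the 3 to *Mapkapk2*, is separated from it by 240 genes. Close neighbours on the chromosome thus moved in opposite directions, as *Rgs1* rose and *Rgs2* fell in each genotype.

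Promoter sequences of RefSeq (mouse build GRCm38.p6) were matched for 4 of the 9 genes, *Rhob* (chr12:8500010-8500259, minus strand), *Rnd3* (chr2:51149112-51149361, minus strand), *Rgs2* (chr1:144004150-144004399, minus strand) and *Rgs16* (chr1:153740103-153740352, plus strand). In these 250 bases before the transcription start, 9 motifs were searched on both strands, which were chosen after the sequences had been looked at. CCAAT, the site of NF-Y, lies 115 to 111 and, on the other strand, 66 to 62 bases before the start of *Rhob*, 44 to 40 bases before that of *Rnd3*, 94 to 90 before that of *Rgs2* and 68 to 64 before that of *Rgs16*. The promoter of *Rnd3* also holds a TATAAA box 28 to 23 bases and a CArG box, the site of SRF, 100 to 91 bases before the start. In *Rgs2*, TGACG, a short CREB site, lies 67 to 63 and, on the other strand, 185 to 181 bases before the start. Of 32851 promoters, 33.8% hold CCAAT, 12.4% TATAAA, 1.47% the CArG box and 17.8% TGACG. The full CREB site (1.55% of promoters), the AP-1 site (6.75%), the NF-kB site (3.90%), the EGR site (2.57%) and the ETS site (6.91%) had no match in the 4. Whether any of these sites is bound in macrophages was not tested. The 4 sequences are shown because only these were matched, and they belong to genes that rose and a gene that fell with LPS. Capitals mark the matches in them, and they are written in the direction of transcription and end at the start.
Rhob: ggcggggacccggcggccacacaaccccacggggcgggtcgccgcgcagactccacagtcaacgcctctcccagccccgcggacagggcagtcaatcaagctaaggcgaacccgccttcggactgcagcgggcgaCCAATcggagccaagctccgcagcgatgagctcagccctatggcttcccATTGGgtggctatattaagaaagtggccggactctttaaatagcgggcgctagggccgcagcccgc
Rnd3: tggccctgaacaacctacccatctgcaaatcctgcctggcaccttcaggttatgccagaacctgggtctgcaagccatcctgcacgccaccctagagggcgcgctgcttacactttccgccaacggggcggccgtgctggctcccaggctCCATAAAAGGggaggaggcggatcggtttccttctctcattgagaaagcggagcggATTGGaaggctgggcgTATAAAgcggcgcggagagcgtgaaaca
Rgs2: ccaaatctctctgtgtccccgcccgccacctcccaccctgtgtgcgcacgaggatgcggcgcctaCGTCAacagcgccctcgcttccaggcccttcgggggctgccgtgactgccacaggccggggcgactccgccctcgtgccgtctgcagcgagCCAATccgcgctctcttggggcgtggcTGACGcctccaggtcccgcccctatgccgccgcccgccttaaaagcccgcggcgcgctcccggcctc
Rgs16: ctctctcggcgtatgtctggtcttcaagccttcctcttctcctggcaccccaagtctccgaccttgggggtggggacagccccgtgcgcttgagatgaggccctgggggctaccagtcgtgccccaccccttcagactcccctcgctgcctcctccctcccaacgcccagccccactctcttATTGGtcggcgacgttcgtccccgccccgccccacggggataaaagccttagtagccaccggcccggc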

How the data were processed

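The scanner files of 23 arrays hold intensity values from Agilent Feature Extraction 11.0.1.1, in which, per the file headers, background had been subtracted and a spatial trend removed, but nothing had been normalized between arrays. A further multiplicative detrend held no fit on 2 arrays. The deposited matrix holds log2 values that the authors had quantile normalized and centred on each probe's median. Its column medians lie between -0.0194 and 0.0233 and the median of every probe is 0, so that the direction of differences is known but not the level of a probe. This file served as an alternative only.

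Of 62976 spots on an array, 59305 were not controls, and no spot was saturated. Spots with a mark for uneven pixels or for deviation from replicate spots were set missing (258 of 1280663 values of the probes averaged), log2 signals were averaged over the spots of a probe and quantile normalized. Of 55681 probes, 33391 with an accession were kept (29150 RefSeq, of which 27509 were matched to a gene name, and 4241 GenBank). Each of 26512 genes was represented by the probe that LPS raised most in wt BMDM, a rule that favours induction. The chip's grid build is mm9, and the promoters are from GRCm38.p6, so that no probe was placed on them.

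The 6 groups were fitted together in limma 3.58.1 (R 4.3.3 with version 1.17.8 of data.table), with 12 contrasts and p-values adjusted over all genes (Benjamini and Hochberg, threshold 0.05). Figures and promoter searches used Python 3.11.15 and matplotlib 3.10.9. Where no array of a group was well above background, the fold is a lower bound, for which the signals of that group were raised to the lowest signal well above background on their array. The scripts were tested on simulated data. Named are the 9 genes in every comparison, and from each list of related genes the 3 with the largest LPS change in wt BMDM among those called and well above background on all wt arrays of a treatment, and those called between genotypes. Some genes and 2 lists are not reported here. The members and lists were chosen with earlier results of these data known.

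Medium and LPS arrays share replicate numbers, and MK2-/- medium replicate 3 was paired with LPS replicate 4 by mouse age and the letter in the design text. Deviations from the group means of the 11 pairs correlated at 0.360 to 0.774 (median 0.490) over 12735 genes well above background on all arrays. Over 26399 genes without missing values, 10 of 11 pairs were over 0.1 (0.0626 to 0.561, median 0.252). The 33 other combinations had medians of -0.190 and -0.0784. The numbers, ages and letters are the source of the pairing, and the correlations over genes well above background bear it out in every pair. The main fit does not use it, nor do the exact tests of LPS against medium.

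Alternatives were 75th percentile scaling, normexp background correction with an offset of 50 on the median signal, the deposited matrix, a floor of 5 for signals, marked spots kept, only probes well above background in a whole group, the brightest probe or the mean over probes of a gene, only the groups of a contrast in the fit, cultures as replicate block, the methods' t-test (with p adjusted over all genes here), and eBayes with trend. For members with 2 probes, the other probe was a further alternative. Each array was also left out in turn, keeping the normalization and probe choice of all 23 arrays.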

Additional observations from a re-analysis of the deposited data

Results flagged for a closer look

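In 3 of 45 groups of 4 arrays of the 9 genes, 1 array lay far from the other 3, with a gap to the nearest array, divided by the range, above Dixon's critical value. Chance gives this in about 1 in 20 groups. The arrays are MK2/3-/- LPS replicate 3 in *Rrad*, which was the highest (0.906), MK2-/- LPS replicate 4 in *Rhob*, which was the lowest (0.852), and MK2/3-/- LPS replicate 2 in *Rgs14*, which was the highest (0.830). Of 27 interactions of the 9 genes, 1 had an exact permutation p of 0.0286, the smallest possible and not adjusted for the 27 tests. It is the difference of -0.93 between the LPS changes of *Rrad* in MK2/3-/- and wt BMDM. It did not pass the adjustment over all genes (adjusted p = 0.370, 0.126 to 0.562 over the alternatives), and what sets the genotypes apart cannot be told apart from the slide.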

How the results depend on the processing

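Of 489 values of 40 results on the 9 genes under 13 alternatives, 477 kept their direction and side of the threshold, 10 lost the call and 2 gained it. None turned its direction. With 23 arrays left out in turn, 909 of 920 values stayed, 9 were lost and 2 gained. The number of the 9 genes called with LPS ran from 6 to 9 in wt, 7 to 8 in MK2-/- and 7 to 9 in MK2/3-/- BMDM over the alternatives, and over left-out arrays from 8 to 9, 7 to 8 and 8 to 9. In all comparisons of genotypes and interactions it stayed at 0, except for MK2/3-/- against wt BMDM after LPS with normexp background correction, where it was 1 (*Gem*). With the pairing as replicate block the counts were 9, 8 and 9 with LPS and 0 elsewhere, and no call but that of *Rrad* in wt BMDM changed. The cause of these changes was not tested.

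Left-out arrays moved the LPS difference of *Gem* from 6.51 to 7.27, 6.98 to 7.34 and 8.09 to 8.87 in wt, MK2-/- and MK2/3-/- BMDM, of *Rrad* from 0.34 to 0.53, 0.09 to 0.33 and -0.59 to -0.43, and of *Rhob* from 1.77 to 2.23, 1.99 to 2.62 and 1.25 to 1.59. The MK2-/- range of *Gem* rests on medium signals that were not well above background, so that it does not measure the size of the increase. The wt and MK2/3-/- ranges of *Gem* are uncertain as well, since in each only 1 of 4 medium arrays was well above background. The ranges were 6.75 to 7.80, 7.53 to 8.19 and 8.48 to 9.51 for *Rnd1* and 2.64 to 3.20, 1.34 to 1.64 and 2.30 to 2.90 for *Rnd3*. For *Rgs1* they were 1.92 to 2.74, 2.08 to 2.76 and 1.64 to 2.55, for *Rgs2* -3.36 to -2.63, -3.02 to -2.47 and -3.25 to -2.81, for *Rgs14* -1.27 to -1.11, -1.78 to -1.41 and -1.02 to -0.83 and for *Rgs16* 2.40 to 3.72, 3.83 to 4.64 and 2.53 to 3.67. The other 68 differences between genotypes and interactions of the 9 genes ran from -1.43 to 1.62 (smallest adjusted p = 0.571). In 26 of them some alternative or left-out array changed the sign, and none passed in any.

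Over all genes, 4493 (3036 to 5758, left out 3463 to 4831) were called with LPS in wt, 4876 (3805 to 6223, left out 3860 to 5075) in MK2-/- and 6549 (4722 to 8124, left out 5434 to 7076) in MK2/3-/- BMDM, with the range over the alternatives in brackets. After LPS the counts were 8 (1 to 11, left out 6 to 18) for MK2-/- against wt, 436 (5 to 619, left out 127 to 619) for MK2/3-/- against wt and 42 (3 to 57, left out 19 to 112) for MK2/3-/- against MK2-/- BMDM. In medium they were 2 (0 to 3, left out 1 to 7), 21 (2 to 28, left out 12 to 24) and 12 (0 to 16, left out 6 to 16), and for the interactions 1 (0 to 1, left out 0 to 2), 3 (1 to 12, left out 3 to 15) and 0 (0 to 1, left out 0 to 1), in the same order. Over left-out arrays only, the lowest count for MK2/3-/- against wt BMDM after LPS came without wt LPS replicate 1 and the highest without MK2/3-/- LPS replicate 4. For MK2/3-/- against MK2-/- BMDM after LPS the lowest left out MK2-/- LPS replicate 3 and the highest MK2/3-/- LPS replicate 4. The highest left-out count for MK2-/- against wt BMDM after LPS came without wt LPS replicate 3, in medium without MK2-/- medium replicate 1. The lowest left-out counts for MK2/3-/- in medium came without MK2/3-/- medium replicate 1 against wt and without MK2/3-/- medium replicate 4 against MK2-/- BMDM. With 75th percentile scaling the median over all genes moved to 0.150 and 0.198 with LPS in wt and MK2-/- BMDM, to 0.154 and 0.129 after LPS and to 0.182 and 0.165 in medium for MK2/3-/- against wt and MK2-/- BMDM. The share higher among called genes went from 35.7% to 51.9% for MK2/3-/- against MK2-/- BMDM after LPS and from 33.3% to 43.8% for MK2/3-/- against wt BMDM in medium. Low signal limits *Gem* and *Rnd1* in medium, where the probes used were near background. The brighter *Rnd1* probe was well above background on all arrays.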
